A study of Mus musculus with 4 samples.

Results

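How the Casp8 genotype difference of cultured mouse epidermal keratinocytes moved between an early and a late passage is described here from all 4 of the 4 two-colour arrays of the series. For each pair number and each probe, the log2 ratio of Casp-8 F/- over Casp-8 F/+ on the late array minus that on the early array was taken, called the difference below. A positive difference says that F/- gained relative to F/+ from early to late passage, and a negative one that it lost. A dye effect that is equal on all arrays cancels in it, which matters because F/- carried Cy3 and F/+ Cy5 on every array. Of 41174 probes for genes, 35464 were measured on all 4 arrays and passed the filter on dim spots.

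Keratinocytes came from the skin of mice aged P3, 2 mice of each genotype, and were grown without serum, with added bovine pituitary extract and EGF. All groups carried K5-Cre, a recombinase driven by the promoter of keratin 5, a gene of basal keratinocytes. F/- cells had 1 floxed and 1 null Casp8 allele and F/+ cells 1 floxed and 1 wild-type allele, so the F/+ controls had the transgene and a deletable allele too. RNA was taken at passage 1 (early) and passage 3 (late). The early group and the late group are thus 2 arrays each, and each array holds 1 F/- and 1 F/+ sample. The labels name no sorting of the cultures, and cells in which that promoter is silent keep the floxed allele. On both late arrays the source name of the F/+ channel says first passage, while the titles, descriptions and passage fields say passage 3. Both channels of the late arrays were taken as passage 3. The early-to-late change of the F/+ channel had an SD over probes of 0.591 in pair 1 and 0.744 in pair 2 (log2). In the F/- channel it was 0.620 and 0.668. These SDs include noise between arrays, so they alone cannot settle the passage of the late F/+ samples.

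Caspase-8 is the initiator protease that death receptors such as Fas and the TNF receptors activate through the adaptor FADD. It starts apoptosis, and it also cleaves RIPK1 and RIPK3 and so holds back necroptosis. Mice that lack it in the epidermis develop an inflamed skin, and cultured keratinocytes that are passaged lose differentiated cells and cells of other types, while those that keep dividing come to dominate.

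The share of gene spots the scanner software marked as clearly above background ran from 80.6% to 87.9% for F/+ and from 75.8% to 85.4% for F/-. No gene spot was saturated, and the arrays shared 1 slide and 1 scan. Keratin 5, keratin 14 and Trp63, the basal keratinocyte markers, and Krt1 and Krt10, the suprabasal ones, were well above background in both channels on all arrays. No probe reached an adjusted p of 0.05 (limma, Benjamini-Hochberg, 0% called in either direction), the smallest adjusted p was 0.816, and 2072 probes (5.84%) had an unadjusted p under 0.05. Every value below is therefore a description with its spread over 2 pairs, no gene is said to have changed, and an exact test over 2 pairs cannot reach 0.05. Each sample came from 1 mouse, so the p-values cover the spread between these arrays, 2 for each passage.

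The 2 pairs gave mostly unrelated differences. Across 35464 probes, which share each array's spots and are not independent, Pearson's r between pair 1 and pair 2 was 0.073 and Spearman's rho 0.056, and 51.5% of probes had the same sign in both. The SD over probes was 0.364 in pair 1 and 0.263 in pair 2. At least 2-fold in both pairs, 18 probes (0.0508%) were higher, 22 (0.062%) lower and 24 (0.0677%) of opposite direction. Per gene, taking the brightest probe of each of 23990 genes, 24.7% were higher in both pairs and 26.9% lower in both. These percentages are the background for the counts of gene lists that follow. The plot of all genes shows a cloud around 0 that is wider along pair 1. Small sets of genes lie outside it at the upper right, the lower left and the upper left.

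**Figure D1:**
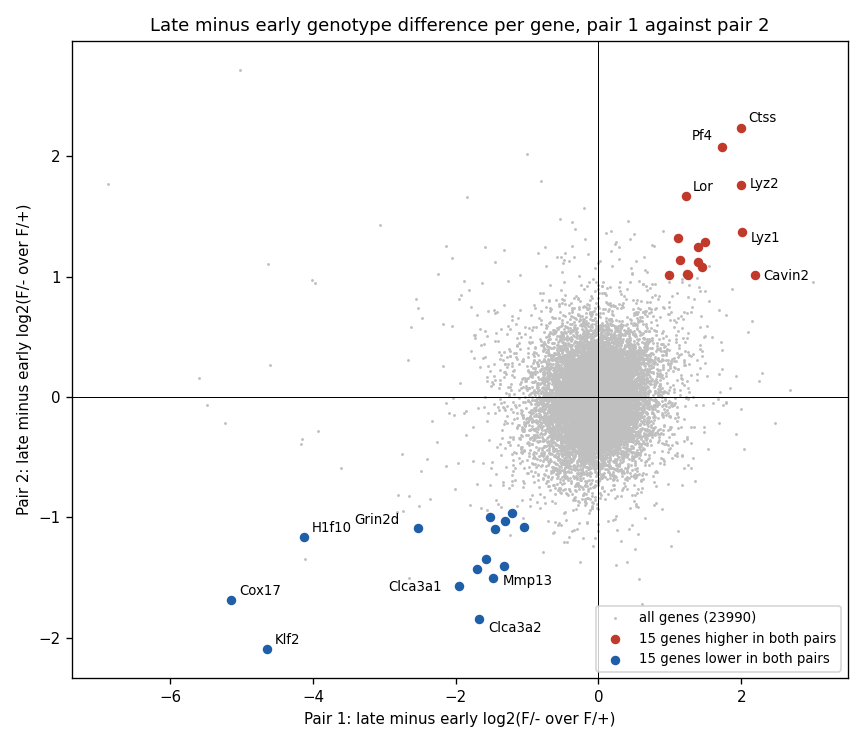
Late minus early difference of log2(F/- over F/+) per gene in pair 1 (x) and pair 2 (y), 1 probe for each of 23990 genes. Red and blue points are the 15 highest and the 15 lowest genes by the smaller of their absolute pair differences. Ctss is highest at 2.0 and 2.23, and Klf2 lowest at -4.65 and -2.10.

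Genes of cell division were lower in nearly every case. Of 40 genes of mitosis and the spindle, 39 had a negative difference in both pairs and none a positive one in both, against 26.9% and 24.7% of all genes. The median difference was -0.53 in pair 1 and -0.47 in pair 2, and the median of the means over both pairs was -0.52, beside -0.01 over all genes, and single means ran from -0.78 to -0.17. An unadjusted p under 0.05 with a negative difference was found for 29 of the 40 and with a positive one for none, against 3.61% and 2.33% of all genes. Of 36 genes of DNA replication and S phase, 35 were lower in both pairs, with medians of -0.61 and -0.36 and 23 with an unadjusted p under 0.05. All adjusted p-values were 0.816 or more.

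The kinase Pbk, active in mitotic cells, differed by -0.94 and -0.62, a mean of -0.78 ± 0.23 (SD, n = 2 pairs). Ccna2, cyclin A2, differed by -1.06 and -0.45 (mean -0.75 ± 0.44). Birc5, survivin of the chromosomal passenger complex, gave -0.78 and -0.67 (mean -0.73 ± 0.08). In all 3 the pairs had the same sign, and only Birc5 had nearly equal values. Mad2l1, a spindle checkpoint protein, differed by -0.91 and -0.49, and the mitotic kinase Plk1 by -0.97 and -0.39. The exception was Pttg1, securin, which holds back the separation of sister chromatids until anaphase, at -0.61 and 0.16.

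Tk1, thymidine kinase, differed by -1.0 and -0.63 (mean -0.81 ± 0.26, SD, n = 2 pairs). Mcm5, a subunit of the replicative helicase, gave -1.16 and -0.47 (mean -0.81 ± 0.49), and Mcm7, another subunit, -1.0 and -0.52. All 6 of the helicase genes Mcm2 to Mcm7 were lower in both pairs, between -1.16 and -0.35 in pair 1 and between -0.52 and -0.14 in pair 2. Mcm10, which loads onto the helicase, differed by -1.13 and -0.40. Pola1, the catalytic subunit of DNA polymerase alpha, was the exception at -1.06 and 0.30. Cdca7, a cell cycle gene named by its rank among all genes, was lower by more than 2-fold in both pairs, at -1.30 and -1.03. Cit, citron kinase of cytokinesis, read -1.22 and -0.97 by its brightest probe, while its other probes read 0.00 and -0.10, and -0.20 and -0.31.

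**Figure D2:**
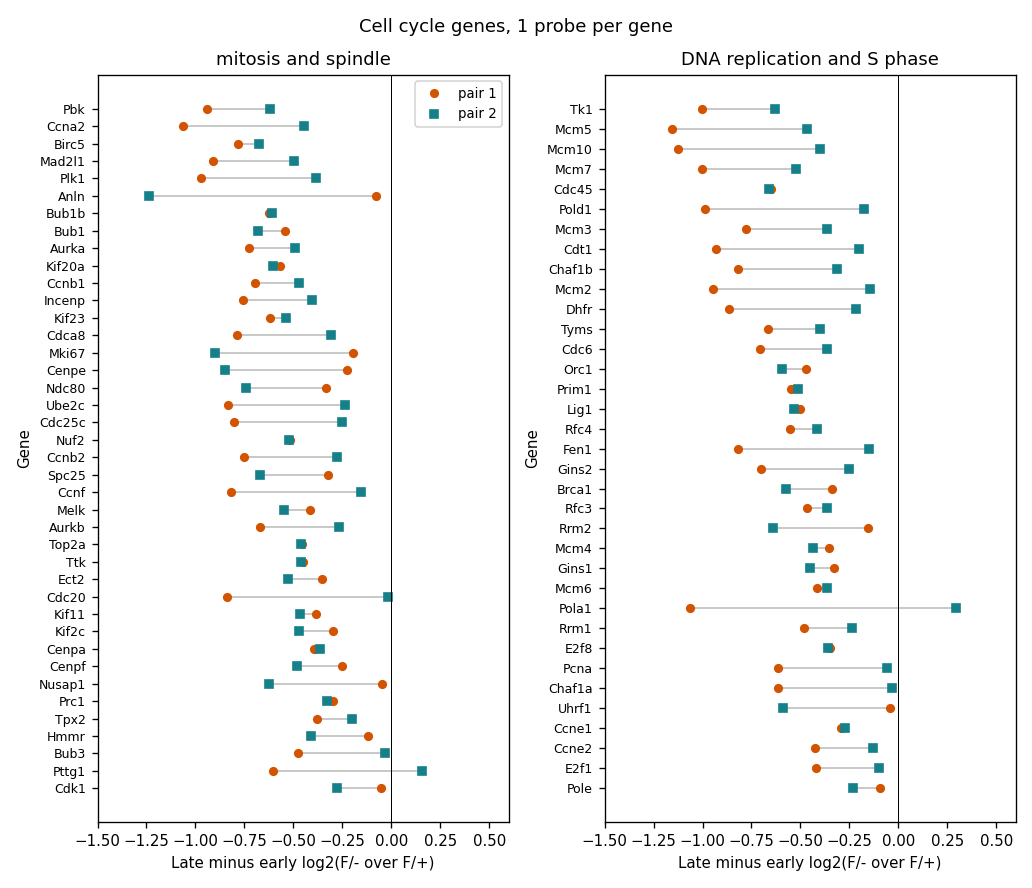
Late minus early log2(F/- over F/+) of the 40 mitosis genes (left) and 35 of the 36 replication genes (right), with pair 1 as circles, pair 2 as squares and a line joining them. Apart from Pttg1 and Pola1 in pair 2, every point lies left of 0.

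The same lists can be read in each channel. Over the mitosis genes the median change from early to late was -0.68 and -0.38 in F/- (pair 1, pair 2) and -0.15 and 0.09 in F/+. Over the replication genes it was -0.83 and -0.52 in F/- and -0.19 and -0.22 in F/+. The F/- medians were thus lower than the F/+ medians in each pair, and the F/+ mitosis median of pair 2 was above 0. Of the Cdk inhibitors and p53 targets, 22 were measured, of which 3 were higher in both pairs, 2 lower and 17 opposite, with a median of 0.09.

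The promoters of genes that were lower together are shown with the motifs known from cell cycle genes. They are the 200 bases before the transcription start from RefSeq on GRCm38.p6, read along the gene, with motif matches in capitals. Ccnb1 (cyclin B1), Plk1 and Bub1b (a checkpoint kinase) stand for mitosis. CCAAT, and TTTGAA or TTCGAA as forms of the cell cycle homology region, are marked on both strands. Other forms of that region were not searched, and in Ccnb1 and Plk1 only CCAAT was matched.
Ccnb1, chr13:100786487-100786686, minus strand: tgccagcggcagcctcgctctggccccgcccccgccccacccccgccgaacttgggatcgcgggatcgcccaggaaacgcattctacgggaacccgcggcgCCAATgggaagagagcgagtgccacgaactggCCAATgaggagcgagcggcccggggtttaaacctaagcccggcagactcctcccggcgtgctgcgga
Plk1, chr7:122159235-122159434, plus strand: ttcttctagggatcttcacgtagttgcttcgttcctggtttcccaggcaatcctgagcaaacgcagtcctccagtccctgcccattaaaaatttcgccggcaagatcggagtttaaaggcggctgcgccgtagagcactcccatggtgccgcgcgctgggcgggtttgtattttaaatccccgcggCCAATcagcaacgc
Bub1b, chr2:118598011-118598210, plus strand: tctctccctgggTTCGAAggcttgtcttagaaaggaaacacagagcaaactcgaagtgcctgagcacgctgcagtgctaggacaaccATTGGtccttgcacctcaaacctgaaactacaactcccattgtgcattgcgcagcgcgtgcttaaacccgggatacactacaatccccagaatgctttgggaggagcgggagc
Mcm5 and Mcm6 stand for replication, with the E2F-type motif TTTNNCGC marked on both strands, overlapping matches included.
Mcm5, chr8:75109309-75109508, plus strand: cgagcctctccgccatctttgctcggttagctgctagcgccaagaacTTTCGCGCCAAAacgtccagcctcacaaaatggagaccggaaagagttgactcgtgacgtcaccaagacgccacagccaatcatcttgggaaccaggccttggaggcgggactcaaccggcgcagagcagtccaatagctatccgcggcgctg
Mcm6, chr1:128359706-128359905, minus strand: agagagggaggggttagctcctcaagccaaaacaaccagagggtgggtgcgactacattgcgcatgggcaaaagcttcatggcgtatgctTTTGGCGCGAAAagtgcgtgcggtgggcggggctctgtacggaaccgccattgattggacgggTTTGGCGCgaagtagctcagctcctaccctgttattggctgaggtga
Ccnb1 differed by -0.70 and -0.47, Bub1b by -0.62 and -0.61 and Mcm6 by -0.41 and -0.36. These 3 were chosen for their motifs after their values were seen.

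Over the 250 bases before the start, counted on both strands and over all starts of a gene, CCAAT was in 24 of the 33 mitosis genes matched to a promoter by symbol (72.7%), against 37.5% of 27025 genes. TTTGAA or TTCGAA, the searched forms of the cell cycle homology region, was in 13 of the 33 (39.4%), against 19.6%. TTTNNCGC was in 2 of the 33 (6.06%) but in 8 of 29 replication genes (27.6%), against 4.94% of all. CCAAT was in 18 of the 29 replication genes (62.1%). A match is a run of letters and was not tested as a site. Here and for the interferon genes below, the counts cover list members whatever their difference, so they describe the lists and not the differences.

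Genes of interferon response split by pair. Of 41 measured, 38 had a negative difference in pair 1 and 11 in pair 2, so that 29 were opposite, 10 lower in both and 2 higher in both. The list median was -0.94 in pair 1 and 0.27 in pair 2. Isg15, an interferon-induced ubiquitin-like protein, differed by -2.06 and 1.15, a mean of -0.45 ± 2.27 (SD, n = 2 pairs). Rtp4, an interferon-induced receptor transporter, gave -2.25 and 1.02. Without early replicate 1 the list median was 0.19, without early replicate 2 it was -0.89 and without late replicate 1 it was -0.21, so a single early array set its sign.

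The few interferon genes below 0 in both pairs were led by Cxcl10, a chemokine that draws T cells, at -2.36 and -0.85 (mean -1.60 ± 1.07). Gbp2, a guanylate-binding protein, differed by -1.38 and -0.39. Irf1, a transcription factor of the interferon-gamma response, gave -0.76 and -0.46, and by its second probe -0.15 and -0.19. Ifitm3 gave -1.69 and -0.09, a restriction factor whose pair 2 value was near 0. Of 20 genes of MHC and antigen processing, 18 were negative in pair 1 and 8 in pair 2, with medians of -0.65 and 0.12. Psmb9, an immunoproteasome subunit, differed by -1.86 and -0.12, and Tap1, a peptide transporter subunit, by -1.21 and 0.67. That list's median of -0.25 was 0.01 without early replicate 1, -0.50 without early replicate 2, -0.15 without late replicate 1 and -0.39 without late replicate 2.

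In F/- the interferon list changed from early to late by a median of -0.18 in pair 1 and 0.99 in pair 2, and in F/+ by 0.76 and 0.88. The F/- cells of pair 1 thus had the lowest median of the 4. The plot of interferon genes has most points left of 0 on the pair 1 axis and above 0 on the pair 2 axis.

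**Figure D3:**
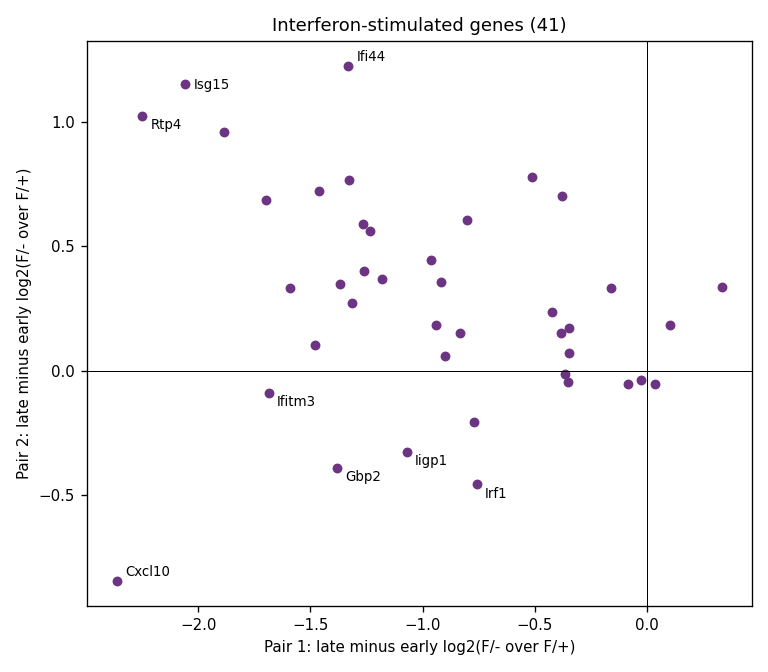
Late minus early log2(F/- over F/+) of 41 interferon-stimulated genes in pair 1 (x) and pair 2 (y). Isg15 and Rtp4 lie at the upper left, and Cxcl10 alone lies far below 0 on both axes, at -2.36 and -0.85.

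Isg15, with opposite signs, and Gbp2, lower in both, are shown because both carry the interferon-stimulated response element, searched as GAAA, any 2 bases and GAAA on both strands, overlapping matches included, and shown in capitals.
Isg15, chr4:156200819-156201018, minus strand: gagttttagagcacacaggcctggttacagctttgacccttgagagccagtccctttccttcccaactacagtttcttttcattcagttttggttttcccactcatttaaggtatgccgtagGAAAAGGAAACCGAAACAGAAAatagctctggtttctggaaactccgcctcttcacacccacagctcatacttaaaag
Gbp2, chr3:142620463-142620662, plus strand: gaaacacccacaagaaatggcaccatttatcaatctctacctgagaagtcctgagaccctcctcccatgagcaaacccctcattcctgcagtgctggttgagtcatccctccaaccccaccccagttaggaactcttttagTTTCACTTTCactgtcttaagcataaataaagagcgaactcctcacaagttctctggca
That motif was in 15 of the 29 interferon genes with a promoter (51.7%), against 3.46% of all genes, and the 2 genes shown both hold it although their pair 2 values differ in sign.

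Chemokines and cytokines leaned lower, with 16 of 31 lower in both pairs, 3 higher in both and 12 opposite, and a median of -0.18. That median was -0.13 without early replicate 1, -0.34 without early replicate 2, -0.38 without late replicate 1 and -0.23 without late replicate 2. Cxcl1, a neutrophil attractant, differed by -1.33 and -0.71 (mean -1.02 ± 0.44, SD, n = 2 pairs). Ccl2, a monocyte attractant, gave -0.86 and -0.87. Csf2, which encodes GM-CSF, gave -0.64 and -0.74. The pairs were nearly equal for Ccl2 and Csf2. Ccl2 and Csf2 read higher at late than at early passage in both genotypes, by 1.23 and 0.43 (Ccl2) and 3.30 and 3.44 (Csf2) in F/-, and by more in F/+, 2.08 and 1.30, and 3.93 and 4.18. Ccl5, a T cell attractant, differed by -1.53 and -0.35. Il1f8 (also called interleukin 36 beta) went the other way, at 0.55 and 0.70.

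The death receptor list had a median near 0, with single genes on both sides. Casp8 itself differed by 0.05 and -0.38 (mean -0.17 ± 0.30, SD, n = 2 pairs; limma adjusted p = 0.962), and its level was higher late than early in both genotypes, by 1.02 and 1.14 in F/- and 0.97 and 1.52 in F/+. The place of its probe relative to the deleted part is not known from the files used here, so this value does not check the deletion, and the Casp8 mean was 0.17 without late replicate 2. Of 33 genes of the list, 13 were lower in both pairs, 5 higher in both and 15 opposite, with a median of -0.06. Fas, the receptor for Fas ligand, differed by -0.41 and -1.17, while its second probe read -0.35 and -0.03. Casp1, the inflammasome caspase, gave -0.47 and -0.77. Mlkl, the effector of necroptosis, gave -0.88 and 0.04. Of 22 NF-kB genes, 15 were opposite, and Nfkbia, the inhibitor IkB alpha, was lower at -0.36 and -0.45 while Vcam1, an adhesion molecule, was higher at 1.24 and 0.70, with its other probes at 0.11 and 0.23 and at 0.41 and 0.32.

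Ranked by the smaller of the 2 pair differences, the highest genes were ones of myeloid cells. Ctss, the lysosomal protease cathepsin S, differed by 2.0 and 2.23, a mean of 2.12 ± 0.16 (SD, n = 2 pairs; limma adjusted p = 0.816). Pf4, platelet factor 4, gave 1.73 and 2.08 (mean 1.90 ± 0.25). Lyz2, lysozyme 2, gave 2.0 and 1.76, and Lyz1, its close paralog, 2.01 and 1.37. Lyz1 and Lyz2 are similar in sequence, so their probes may not be independent, and the other Lyz2 probe read 0.56 and 0.35. All 4 were more than 2-fold higher in each pair. Their levels were lower at late than at early passage in both genotypes, and by less in F/-: Ctss by -2.58 and -2.34 in F/- against -4.58 and -4.58 in F/+.

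The other macrophage markers had no common direction. Of 24 markers, 11 were higher in both pairs, 4 lower in both and 9 opposite. The 20 besides Ctss, Pf4, Lyz1 and Lyz2 had a median of -0.01, with 13 negative in pair 1 and 4 in pair 2. C1qc, a complement component, differed by 0.68 and 0.89, C1qa by -0.09 and 0.71, and Fcer1g, the Fc receptor gamma chain, by -0.72 and 0.13. All 24 markers were measured, and 23 of them were well above background in both channels on every array, so that none of these was absent. The log2 of the summed level of all 24 markers ran from 15.47 to 15.99 in early F/- and from 15.20 to 15.39 in early F/+. At late passage it ran from 14.06 to 14.57 in F/- and was 13.24 in both F/+ samples. This sum includes Ctss, Pf4, Lyz1 and Lyz2, which were picked by their difference, so it is not separate from their values. The part of macrophage content in the values of Ctss, Pf4 and the lysozymes was not tested, and in bulk RNA fewer cells of a type and less RNA per cell cannot be told apart. The list's median of 0.16 was -0.20 without early replicate 2, 0.07 without late replicate 1, 0.36 without early replicate 1 and 0.33 without late replicate 2.

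Melanocyte markers had a median of -0.03 (4 of 11 higher in both pairs, 1 lower), endothelial markers -0.04 and Langerhans and T cell markers 0.02. The log2 summed melanocyte level read lower late than early in both genotypes, with late minus early at -1.40 in both pairs of F/- and at -1.35 and -1.72 in F/+. Slc45a2, a melanosome transporter, differed by 0.49 and 0.53, and Kdr, a VEGF receptor, by 0.35 and 0.40, with another probe at -0.02 and 0.07.

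Cornified envelope genes divided by family. Of 51 suprabasal and cornified envelope genes, 24 were higher in both pairs, 9 lower in both and 18 opposite, with a median of 0.13. In a count made after the values were seen, 9 of 12 Lce1 genes were higher in both pairs and none lower in both, while 9 of 13 Sprr genes were lower in both and 2 higher. Genes within each family are similar in sequence and lie side by side, so their probes may share signal. Lce1f, a late cornified envelope protein, differed by 1.5 and 1.29 (mean 1.39 ± 0.15, SD, n = 2 pairs). Lce1a2 gave 1.11 and 1.32, and Lce1c 1.25 and 1.03. Lor, loricrin, the main protein of the cornified envelope, gave 1.23 and 1.67 (mean 1.45 ± 0.31).

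The small proline-rich proteins, cross-bridging precursors of the envelope, stood opposite. Sprr2d differed by -2.49 and -0.61 (mean -1.55 ± 1.33), far more negative in pair 1. Klk5, a desquamation protease, was higher at 2.09 and 0.54. Lce3c and Krt10, an early differentiation keratin, had opposite signs, -1.74 and 0.51, and -1.29 and 0.52. A second Krt10 probe read -0.12 and 0.07. Over the whole list the median level change was -2.24 and -2.09 in F/- and -2.99 and -3.05 in F/+, and 43 of the 51 genes read lower late than early in both genotypes of both pairs. The list's median was -0.0030 without late replicate 2 and 0.020 without early replicate 1, but 0.39 without early replicate 2 and 0.37 without late replicate 1. Smpd3, a neutral sphingomyelinase, was higher by all 3 probes, with the brightest at 1.40 and 1.24 and the others at 0.49 and 0.48, and 1.62 and 1.23. Vasn, vasorin, a TGF-beta binding protein, gave 1.46 and 1.08. Rgs4, a regulator of G protein signalling, was higher at 1.39 and 1.13, and its level was higher late than early in both genotypes, by 3.30 and 2.82 in F/- against 1.91 and 1.69 in F/+. Cavin2, a caveolar coat protein, gave 2.19 and 1.01.

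**Figure D4:**
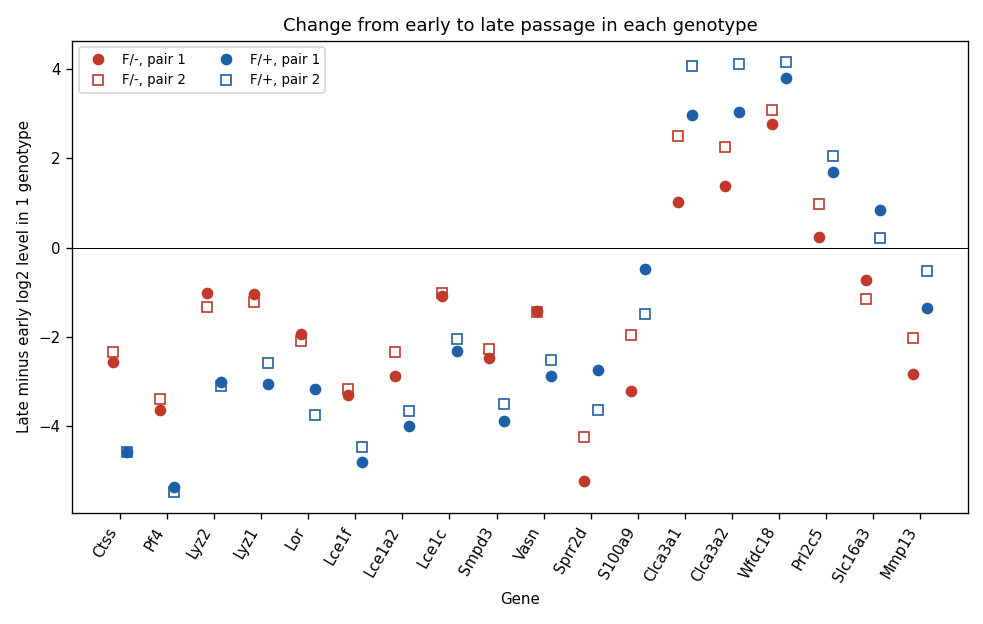
Early-to-late change of the log2 level in F/- (red) and F/+ (blue) for 18 genes, filled circles for pair 1 and open squares for pair 2. For Ctss to Vasn the F/- points lie above the F/+ points, and from Sprr2d to Mmp13 they lie below.

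Basal genes were mostly lower, and stress genes leaned lower less firmly. Of 21 basal keratinocyte genes, 12 were lower in both pairs and 3 higher in both, with medians of -0.42 and -0.14. Krt15, a basal and stem cell keratin, differed by -0.76 and -0.41, Itga3, an integrin of the basement membrane anchor, by -0.51 and -0.56, and Trp63, the master transcription factor of stratified epithelia, by -0.67 and -0.27. The basal list's median of -0.29 was 0.04 without early replicate 1, -0.54 without early replicate 2 and -0.18 without late replicate 2. Among stress keratins and alarmins 10 of 19 were lower in both pairs and 5 higher in both, with a median of -0.17. That median was -0.0073 without late replicate 2, -0.083 without late replicate 1, -0.099 without early replicate 1 and -0.13 without early replicate 2. Krt16, an activation keratin, gave -0.54 and -0.79, Defb14, a beta-defensin, -1.18 and -0.69, and S100a9, a calprotectin subunit, -2.75 and -0.47, while its partner S100a8 gave -0.32 and 1.39. Of 20 simple epithelial keratins and claudins, 10 were higher in both pairs and 2 lower. Krt20, a keratin of simple epithelia, was higher at 0.91 and 1.38, while Krt19, another, was lower at -1.22 and -0.22. Cldn4, a claudin, had opposite signs at 0.92 and -0.55.

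Matrix and mesenchymal genes leaned higher, 17 of 29 in both pairs against 2 lower in both, with medians of 0.62 and 0.26. Spp1, osteopontin, differed by 1.42 and 0.88 (mean 1.15 ± 0.38, SD, n = 2 pairs). Col1a2, a collagen I chain, gave 0.99 and 1.02, while a dim second probe read -0.07 and -0.01. Loxl2, a collagen cross-linker, gave 0.76 and 0.67, and by its other probe 0.25 and 0.32. All 5 measured chains of collagens I, III and V were above 0 in both pairs, with Col1a1 at 1.52 and 0.17 and its other probes at 1.21 and 0.35 and at 0.13 and -0.08. Thy1, a surface protein of fibroblasts and T cells, was higher by both probes, at 1.25 and 1.01 and at 0.68 and 0.38. The list's median of 0.51 was -0.00065 without late replicate 1 and 0.82 without late replicate 2, so this lean rests on the first of these arrays. Among 19 fibroblast markers 10 were higher in both pairs and 4 lower. The log2 summed fibroblast level changed by 1.07 and 0.34 in F/- and by 0.48 and 0.12 in F/+. That sum includes Col1a2 and Thy1, which were picked by their difference. The fibroblast list's median of 0.20 was -0.00065 without late replicate 1, 0.34 without early replicate 1 and 0.47 without late replicate 2. The part of fibroblast content in the matrix values was not tested.

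Contractile genes were divided, with 6 of 18 higher in both pairs and 7 lower. Tagln, transgelin, an actin-binding protein, differed by 0.85 and 0.84, and Ankrd1, a mechanical stress gene, by 1.16 and 0.67. Acta2, smooth muscle actin, gave -0.37 and -1.12 by its brightest probe, but 2 of its 3 other probes had a mean above 0. Among proteases, Mmp13, collagenase 3, gave nearly equal values, -1.48 and -1.51, with a limma adjusted p of 0.891 (11 of 29 genes of that list lower in both pairs, 5 higher). Timp3, an inhibitor of metalloproteinases, gave 2.30 and 0.20, and Plau, urokinase, had opposite signs at -0.20 and 1.57. The limma test rests on the spread between arrays of a passage, not between pairs.

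The metabolic lists leaned in opposite directions. Of 29 genes of sterol and fatty acid synthesis, 17 were higher in both pairs and 2 lower, with medians of 0.34 and 0.20. Insig1, the sterol-regulated retention protein of SREBP, differed by 1.14 and 1.14, its second probe by 0.33 and 0.31. Hmgcs1, an early sterol synthesis enzyme, gave 0.87 and 0.38, with its other probes at 0.83 and 0.33 and at 0.47 and -0.15. Of 26 glycolysis and hypoxia genes, 16 were lower in both pairs and 1, Adm (adrenomedullin, 0.60 and 0.52), higher in both. Their median of -0.30 was -0.18 without late replicate 1. Slc16a3, a lactate exporter, was lowest at -1.58 and -1.35 (mean -1.46 ± 0.16, SD, n = 2 pairs). Car12, a carbonic anhydrase, gave -0.88 and -0.62 and Pfkl, a phosphofructokinase, -0.84 and -0.65. Ddit4, an mTOR inhibitor, had opposite signs at -1.85 and 1.67.

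Signalling lists had no common direction. Of 16 Notch genes 5 were lower in both pairs, Jag2, a ligand, at -1.22 and -0.70. Jag1, another ligand, gave -0.72 and -0.70 by its brightest probe and 0.67 and 0.81 by the other, so its direction is not settled. Egr2, an immediate early factor, was higher at 3.00 and 0.96. Of 20 AP-1 and immediate early genes 5 were higher in both pairs, 3 lower in both and 12 opposite.

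Hair follicle genes had no common direction either, 6 of 17 being higher in both pairs and 6 lower. Lgr6, a stem cell receptor of the hair follicle, differed by 0.99 and 0.69, and Lef1, a Wnt effector, by 0.44 and 0.56. The other probes of Lef1 read -0.05 and 0.38, and 0.09 and 0.04. Krt75, a keratin of the companion layer, gave -0.88 and -0.47 and Cd34, a bulge stem cell marker, -0.71 and -0.40. Of 9 desmosome genes 5 were higher in both pairs and none lower in both, with Dsc3, desmocollin 3, at 0.36 and 0.29. Of 22 genes of glutathione and peroxide defence 5 were higher in both pairs and 7 lower, Hmox1, heme oxygenase 1, at 0.51 and 0.53 and Gpx4, which reduces lipid peroxides, at -0.45 and -0.33. Cst6, a cystatin of the epidermis and 1 of 8 genes of the stefin A list, gave 2.68 in pair 1 and 0.06 in pair 2, while its other probe read 0.01 and 0.04, so the large value came from 1 probe in 1 pair. Ribosomal protein genes (6 of 30 higher in both pairs, 6 lower) and respiratory chain genes (3 of 27 higher, 8 lower) had medians of -0.06 and -0.10. The plot of list medians sets the cell cycle lists at one end and the matrix list at the other, and shows the interferon and MHC lists on both sides of 0.

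**Figure D5:**
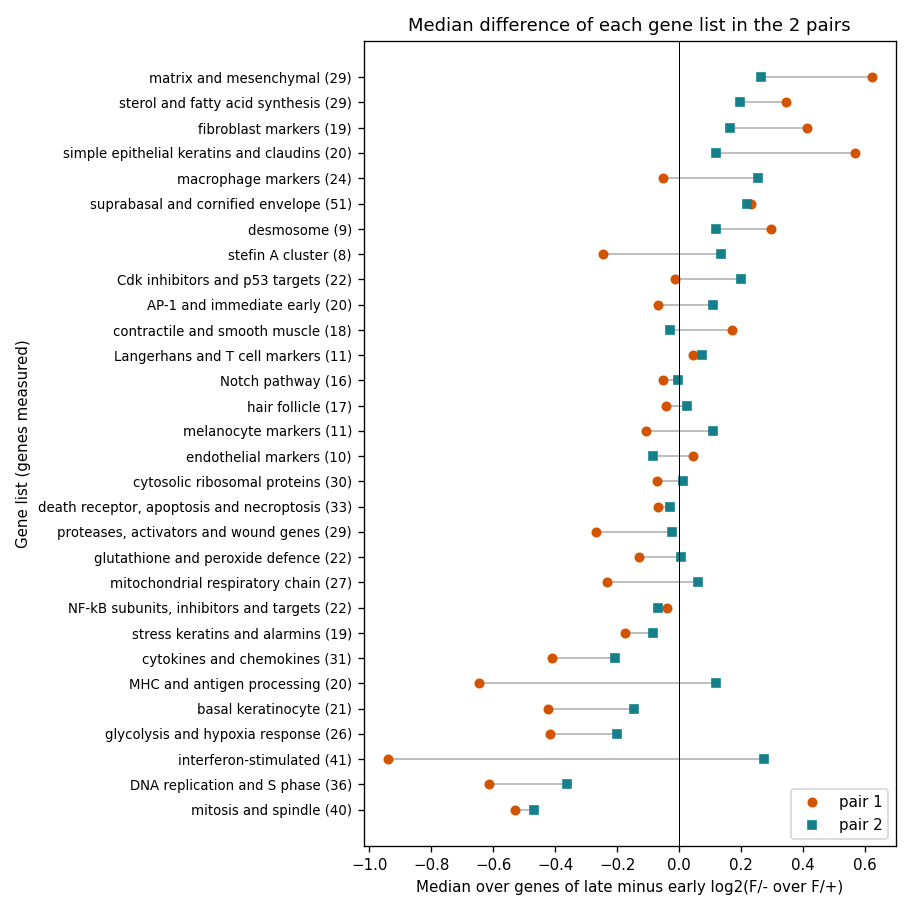
Median late minus early log2(F/- over F/+) over the genes of each of 30 lists, pair 1 as circles and pair 2 as squares. The mitosis list lies at -0.53 and -0.47 and the interferon list at -0.94 and 0.27.

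Genes that were lower by rank alone included secreted and membrane proteins that read higher at late passage in both genotypes. Clca3a1 and Clca3a2, chloride channel accessory proteins that are close paralogs, differed by -1.96 and -1.57, and by -1.67 and -1.84. Their levels were higher late than early by 1.01 and 2.50 in F/- against 2.97 and 4.07 in F/+ for Clca3a1. Wfdc18, a protease inhibitor, gave -1.05 and -1.08. Prl2c5 and Prl2c3, proliferins of nearly the same sequence, gave -1.44 and -1.10, and -1.52 and -1.0. Tfap2e, an AP-2 transcription factor, gave -1.70 and -1.43, with a second probe at -0.61 and 0.03. Unlike the genes above, Tfap2e read lower late than early in both genotypes, by -2.29 and -2.61 in F/- and -0.59 and -1.19 in F/+.

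Among the genes named by rank, the most negative means came from single probes whose size a second probe of the gene did not share. Klf2, a transcription factor of quiescent cells, read -4.65 and -2.10 and by its other probe 0.52 and 0.35. Cox17, a copper chaperone of cytochrome oxidase, read -5.15 and -1.69 and by its other probe -0.26 and 0.22. H1f10, a linker histone, read -4.13 and -1.17 and by its other probe -0.23 and -0.08. In all 3, pair 1 was more than 2 log2 units below pair 2, and the level of the F/- channel was lower late than early in both pairs while that of F/+ was higher in pair 1 and lower in pair 2.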

How the data were processed

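RNA of F/- (Cy3) and F/+ (Cy5) keratinocytes was hybridised to 4 arrays without dye swap. The deposited scanner files hold spot intensity and local background for each channel, and a log10 ratio of Cy5 over Cy3, per the file headers. The submitters' processing notes name the scanner software as Agilent Feature Extraction (9.1.3.1). Flags above background and for outliers, deposited as other columns, were used as given. The authors' deposited table of log10 ratios equals that ratio with its sign turned and was not used otherwise. All log2 values are computed here from the deposited intensities.

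Mean intensities were background-corrected (normexp, offset 50) and loess-normalized within each array with control and outlier spots at weight 0 (R 4.3.3, limma 3.58.1), and spots of a probe were averaged. Probes were kept if measured on all 4 arrays and, on 2 or more of them, well above background for either dye. The limma moderated test compared the late with the early arrays (2 residual degrees of freedom), with Benjamini-Hochberg adjustment over 35464 probes. A 2-fold threshold in both pairs was also counted. Levels per channel used Aquantile between arrays. Probes were named by accession or symbol through RefSeq. Named genes were the 15 highest and 15 lowest by the smaller absolute pair difference among genes well above background in both channels of all arrays, up to 5 members per list of the same sign and 2 of opposite sign, and Casp8. Beside a named gene, probes that differed in sign from the one reported are given. A few genes that this rule picks are counted in their lists but not reported here by name, and 1 of them is left out of a plot. The 30 gene lists and the members were chosen with earlier results of these data known. The fit was tested on simulated data. The design has 2 mice of each genotype sampled at both passages, so equal pair numbers were read as the same animals, which the labels do not state outright. Deviations of equal numbers correlated at -0.00047 over probes. The number of arrays limits the precision.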

Additional observations from a re-analysis of the deposited data

How the results depend on the processing

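No probe was called in any alternative: limma's smallest adjusted p ran from 0.248 (without late replicate 2) to 0.985 (without early replicate 1), with 1340 to 2899 probes at an unadjusted p under 0.05. With the pair as a replicate block 0 probes were called, with 2265 under an unadjusted 0.05 and a smallest adjusted p of 0.753, so the block changed no call. Slide could not be fitted as a block, since all arrays share 1 slide. The 18 higher and 22 lower probes past 2-fold in both pairs became 87 and 64 by the scanner software's log ratio, 40 higher with a normexp offset of 0, 34 lower with median centring, and 128 and 131 at 1.5-fold. With each pair left out in turn they were 121 to 236 higher and 74 to 447 lower. The cause of these shifts was not tested.

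The median of the mitosis list was -0.47 when all probes of a gene were averaged, and ran from -0.56 to -0.46 with 1 array left out, and that of the replication list from -0.55 to -0.39. Left-out arrays took the matrix list from -0.00065 to 0.82, the interferon list from -0.89 to 0.19 and the glycolysis list from -0.35 to -0.18. Of the other 25 lists, 18 had a median that crossed 0 under some alternative. None of the 30 genes named by rank changed sign in any alternative, while 15 of 145 named within lists did, 2 of them under another normalization. The 30 were picked for large differences of the same sign in both pairs, so their stable sign follows largely from that choice. Where a passage was left with 1 array, it was assumed to vary like the other passage.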

Other observations

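Among the 24 probes past 2-fold in opposite directions, all but 2 were negative in pair 1 and positive in pair 2. Ptprz1, a receptor phosphatase, read -6.88 and 1.77, Pigt, a subunit of the GPI transamidase, -5.03 and 2.72, and Lars2, the mitochondrial leucyl-tRNA synthetase, -4.63 and 1.11. Hbb-bt, an adult beta globin chain of red blood cells, was there by both of its probes, at -2.13 and 1.26 and at -1.53 and 1.33. Interferon-induced genes on the same list were Isg15, Rtp4 and Ifi44 (-1.33 and 1.22). The 2 probes positive in pair 1 and negative in pair 2 belonged to Gm2a, the GM2 ganglioside activator (1.02 and -1.24), and Lrp5, a Wnt co-receptor (1.12 and -1.12). These genes were chosen after their values were seen.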
